A study of Mus musculus with 6 samples.

Results

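The simple epithelial keratins Krt7, Krt8, Krt18, Krt19 and Krt20 were followed in single cells of mouse small-intestinal crypts. All 5 genes were taken by symbol and all 5 were listed in each of the 6 count tables, which together list 19178 genes. A barcode was kept when it held 300 or more genes and no more than 25% of its counts were mitochondrial, and 4890 of 13191 barcodes (37.1%) were.

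Cells came from freshly isolated crypts of C57BL6 mice aged 10 weeks, by Drop-seq, a droplet method that tags each cell's polyadenylated RNA with a cell barcode and a molecular identifier (UMI) and counts transcripts at their 3′ end. Ptger4 epithelial knockout mice (knockout) were compared with floxed mice (flox), and each genotype had 3 droplet collections. Ptger4 encodes EP4, a receptor for prostaglandin E2. No animal and no cell was treated, and crypts were freed with EDTA and dissociated with trypsin. The labels give no Cre driver, no deleted part of the gene and no number of animals. The collection codes were read as 2 biological replicates per genotype, collections 1 and 2 being the first and collection 3 the second, which the labels do not state outright. Where nothing says that sums came from separate animals, a p-value measures only the spread between these samples, which may be technical.

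Keratins are intermediate filament proteins. A filament is built from pairs of 1 type II chain (Krt7 or Krt8 here) and 1 type I chain (Krt18, Krt19 or Krt20), so neither type forms filaments by itself. In simple epithelia of the gut, Krt8 is the main type II chain and the type I chains are its partners, Krt20 is known as a keratin of differentiated villus cells, and the filaments are anchored at desmosomes and give the cell its mechanical strength. In the GENCODE annotation of build GRCm38 the genes sit at 2 loci. Krt7 (chromosome 15, 101411043 to 101430313, + strand), Krt8 (chromosome 15, 101996698 to 102004482, - strand) and Krt18 (chromosome 15, 102028180 to 102032027, + strand) lie together, with 23.7 kb between the divergent Krt8 and Krt18. Krt19 (chromosome 11, 100140810 to 100148665, - strand) and Krt20 (chromosome 11, 99428403 to 99438150, - strand) lie in the type I cluster.

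The promoters of Krt8, Krt18 and Krt20 are shown because these genes took different courses towards the enterocyte: Krt8 and Krt20 were higher there and Krt18, the neighbour of Krt8, was lower. RefSeq's promoter table for GRCm38.p6 held windows of 300 bases, 250 before and 50 after the annotated start, for 4 of the 5 genes, Krt19 being the one without. Each window is read 5′ to 3′ on the gene's strand, and capitals mark any match, on either strand, to the letters searched: TATAAA for the TATA box, GGGCGG for the GC box, TGANTCA for AP-1, CAAAGTNCA for HNF4 and TTTATNG for CDX.
Krt8, chr15:102004293-102004592, - strand: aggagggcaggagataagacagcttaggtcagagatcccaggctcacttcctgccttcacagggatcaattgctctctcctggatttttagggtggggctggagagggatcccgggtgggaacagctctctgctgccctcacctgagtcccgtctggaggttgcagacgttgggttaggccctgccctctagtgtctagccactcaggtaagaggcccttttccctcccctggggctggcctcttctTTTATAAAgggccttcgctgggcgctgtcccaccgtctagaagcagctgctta
Krt18, chr15:102027966-102028265, + strand: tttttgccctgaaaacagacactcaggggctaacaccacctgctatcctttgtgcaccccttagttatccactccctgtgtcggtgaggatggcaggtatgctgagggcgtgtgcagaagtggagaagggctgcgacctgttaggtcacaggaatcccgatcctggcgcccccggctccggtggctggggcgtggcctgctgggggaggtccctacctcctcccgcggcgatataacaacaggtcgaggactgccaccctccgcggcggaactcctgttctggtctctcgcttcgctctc
Krt20, chr11:99438104-99438403, - strand: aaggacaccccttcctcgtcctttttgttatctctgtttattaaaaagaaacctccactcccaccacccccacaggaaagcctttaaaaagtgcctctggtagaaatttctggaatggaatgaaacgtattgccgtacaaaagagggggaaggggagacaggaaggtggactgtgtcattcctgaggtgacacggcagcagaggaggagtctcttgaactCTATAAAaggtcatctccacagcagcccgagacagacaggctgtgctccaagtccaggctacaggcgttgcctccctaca
The Krt8 window held TATAAA on both strands as 1 overlapping run. Its matches began 3 and 1 bases before the annotated start and ran across it. The Krt20 window held TATAAA beginning 29 bases before the annotated start, overlapped by a CDX match on the other strand. The starts are RefSeq's, and that of Krt8 lies inside the GENCODE span given above. No searched motif was in the Krt18 window, and the Krt7 window, not shown, held 4 GC boxes. Of 32851 promoters of the same length, 13.6% held the TATA box, 35.7% the GC box, 7.81% the AP-1, 1.41% the HNF4 and 10.9% the CDX letters. A match describes letters in the window and not binding.

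Total counts per collection were 1605533 to 2646093 in knockout and 1228337 to 3146909 in flox, with 703 to 981 kept cells in knockout, 473 to 1053 in flox and median depths of 1070 to 1471.5 UMIs per cell. Ptger4 had 26, 26 and 59 counts in kept cells of knockout collections 1 to 3, against 36, 14 and 32 in flox collections 1 to 3, or 17.4 to 24.5 CPM (counts scaled to a library total of 1e6) in knockout against 11.9 to 15.1 CPM in flox. The targeted gene's RNA thus did not follow the labels. Its 3′ counts check nothing if they lie outside the deleted part, and genotypes are given below as labelled. Kept barcodes recurred between knockout 1, flox 1 and flox 2 (19 to 26 per pair) and between knockout 2, knockout 3 and flox 3 (8 to 17 per pair), with 0 shared between those trios, and 133 kept cells had such a barcode. These trios are called run 1 and run 2 below, which is inferred from the recurring barcodes alone, since the labels name no run. Xist, transcribed from the inactive X chromosome of females, had 1880 counts in knockout collection 3 and 1674 in flox collection 3 but at most 12 in any other, and the labels give no sex.

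Clustering without keratin genes gave 17 clusters. Marker lists named 13 of them in 9 classes, all called "-like", and 4 clusters with 34.7% of kept cells were left unnamed and are called by their leading gene. All cells outside the T or NK-like and B or plasma-like classes are called epithelial (4503 cells). A class level is the sum of a gene's counts over the class's total counts in a biological replicate, in CPM, averaged over 2 knockout and 2 flox replicates (mean ± SD, n = 4). Class levels are descriptions with no test, since the cells were grouped by their own transcripts.

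The label of these genes as epithelial held in the data. Krt8 had 2763 CPM in pooled epithelial cells, against 293 CPM in T or NK-like cells and 237 CPM in B or plasma-like cells. The pooled immune levels were 5.78% to 11.1% of the epithelial level in T or NK-like cells for the 4 keratins other than Krt7, which had 0 counts there, and 3.81% to 13.1% in B or plasma-like cells for all 5. Free RNA carried keratins too: pooled barcodes under 100 counts held the 5 genes at 49.8% to 77.8% of their epithelial level, Krt7 on 17 counts. Of these 3763 barcodes, 2119 were from flox collection 2, 888 from knockout 1 and 587 from knockout 2. Flox 3 gave 126, knockout 3 29 and flox 1 14, so free RNA was barely measured in the last 2. After each cell was thinned to 500 UMIs, at least 1 UMI of any of the 5 genes was found in 84.7% of epithelial cells (95% Clopper-Pearson interval 83.6% to 85.8%, 4275 cells, median depth before thinning 1434 UMIs), against 14.1% of T or NK-like cells (8.69% to 21.1%, 135 cells, median 838). Without thinning, the shares were 94.8% and 19.9%. Such intervals cover counting error only.

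Along the absorptive line the 5 genes took different courses. The clusters were ordered by their share of enterocyte marker counts: stem cell-like (1101 cells), cycling-like (248), a Gsdmc4-led cluster (531), a Reg3g-led cluster (443) and enterocyte-like (463). Krt8, the main type II chain, had 1729 ± 125, 1889 ± 252, 3718 ± 632, 3956 ± 253 and 4288 ± 424 CPM in that order. Its step up lay between the cycling-like and Gsdmc4-led cells, and the last 3 levels overlapped in their ranges. Of the 2 enterocyte-like clusters described below, the one led by Fabp6 had 5201 ± 490.3 CPM of Krt8. The one led by Fabp1 had 3568 ± 352 CPM, below the means of Reg3g-led and Gsdmc4-led cells. Krt20, the villus type I chain, had 63.0 ± 17.2, 94.6 ± 46.6, 502 ± 94.7, 541 ± 59.2 and 1599 ± 75.7 CPM. The enterocyte-like replicates, at 1492 to 1664 CPM, lay above every replicate of every other class. Krt19, the type I chain most abundant in counts here, had 1046 ± 87.5, 1373 ± 57.8, 2578 ± 353, 2767 ± 64.5 and 2135 ± 296 CPM. Its class mean was highest in Reg3g-led cells, and it was lower in enterocyte-like than in Reg3g-led cells in 4 of 4 replicates. That did not hold in each enterocyte-like cluster (described below). The replicates of the one led by Fabp6 had 2911 to 3043 CPM, above the 2719 to 2860 CPM of Reg3g-led cells. The one led by Fabp1 had 1544 ± 306 CPM. Krt18 had 516 ± 42.9, 332 ± 100.4, 506 ± 73.7, 316 ± 40.6 and 220.4 ± 52.6 CPM, with its lowest level of the 5 in enterocyte-like cells. Krt7 stayed between 32.1 and 85.7 CPM along the line.

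**Figure D1:**
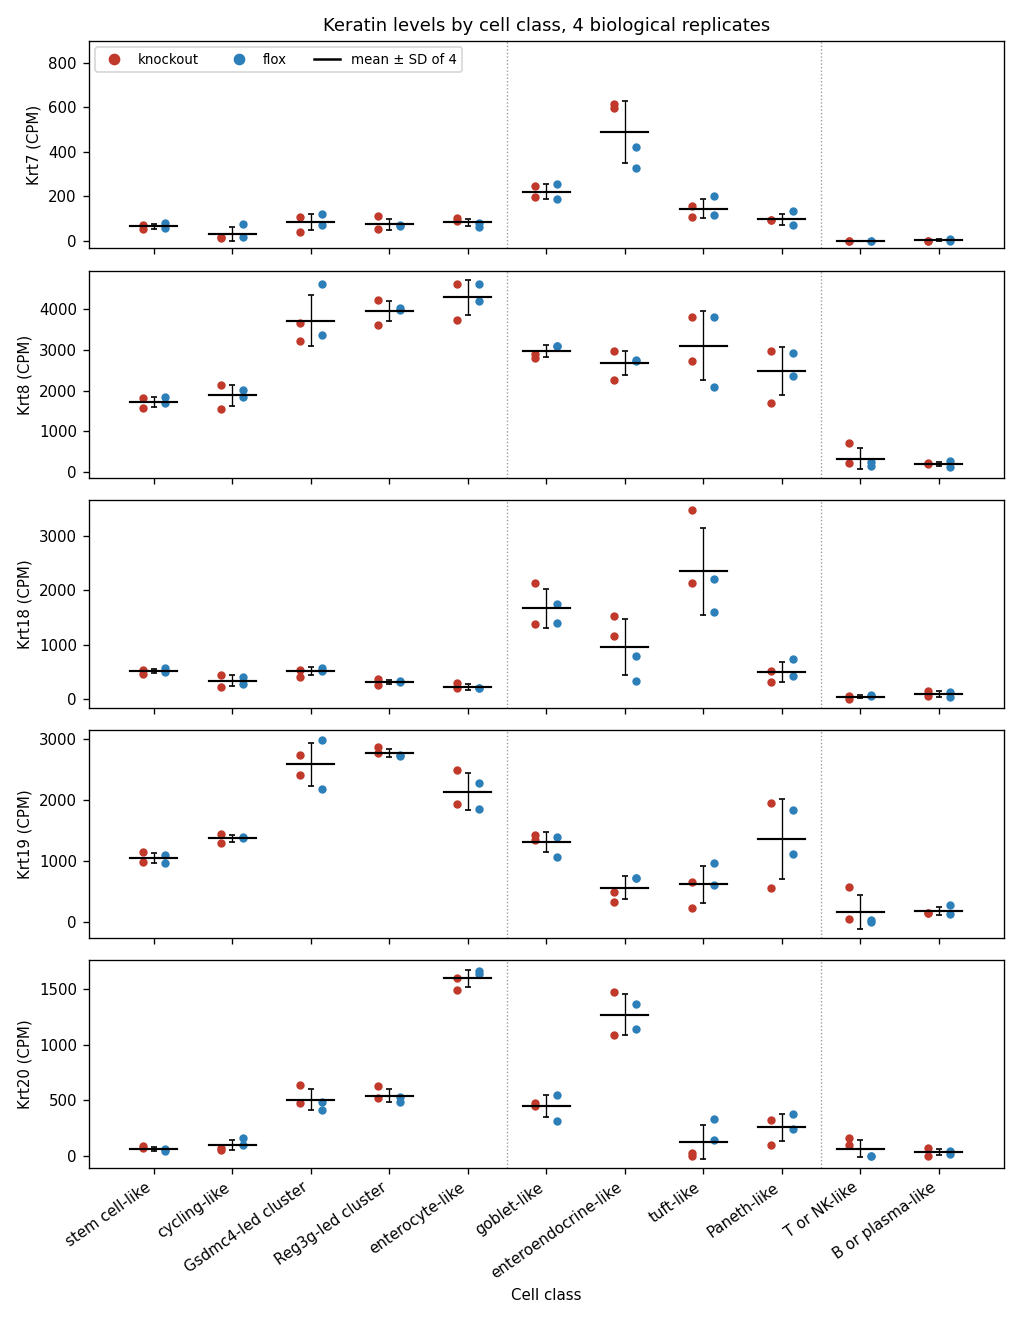
Levels of the 5 keratins in CPM (linear axes, a scale per gene) in 11 cell classes or clusters, with the absorptive line left of the first dotted line, secretory classes between the lines and immune classes on the right. Points are biological replicates (knockout left, flox right of each tick), black lines and whiskers the mean ± SD of 4. By class mean, Krt8 and Krt20 are highest in enterocyte-like cells, Krt18 in tuft-like cells (2356 CPM) and Krt7 in enteroendocrine-like cells (490.4 CPM). For Krt8 the replicate ranges of enterocyte-like, Reg3g-led and Gsdmc4-led cells overlap.

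Per replicate, enterocyte-like cells had 3728 and 4615 CPM of Krt8 in knockout and 4619 and 4189 CPM in flox, against 1568 and 1818 CPM in stem cell-like cells of knockout and 1838 and 1692 CPM in those of flox. The 4 differences on the log2(CPM + 10) scale spanned 1.24 to 1.34 only, with a mean of 1.303 ± 0.042. Krt20 had 1492 and 1602 CPM in enterocyte-like cells of knockout and 1638 and 1664 CPM in those of flox, against 68.1 and 83.2 CPM in stem cell-like cells of knockout and 42.1 and 58.4 CPM in those of flox. That difference was 4.49 ± 0.39, a ratio of mean CPM of 25.4, and 19 of 6042 genes with at least 20 CPM in epithelial cells had a larger one. The stem cell-like level of Krt20, 58.9 CPM pooled, was close to the 48.8 CPM of T or NK-like cells, so the ratio may be against a level near background. That background rests on 7 counts, all in knockout collections, and is too thin to place the flox level. The difference was 1.02 ± 0.08 for Krt19, 0.31 ± 0.37 for Krt7 and -1.21 ± 0.29 for Krt18. In all 4 replicates, Krt7, Krt8, Krt19 and Krt20 were above the stem level and Krt18 below it. Over the 6042 genes, 27.2% were above and 39.2% below in all 4 replicates, so the direction alone sets no keratin apart.

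Shares of cells gave the same order for Krt20. After thinning to 500 UMIs, 50.9% of 460 enterocyte-like cells had a Krt20 UMI (46.2% to 55.5%), against 1.60% of 1061 stem cell-like cells (0.936% to 2.55%). The T or NK-like share was 1.48% (2 of 135 cells, 0.180% to 5.25%), so the stem cell-like share could not be told apart from background at this depth. Unthinned shares were 86.4%, 11.2% and 2.65% in that order, at median depths of 1812, 1809 and 787 UMIs. Krt8 was found in 82.2% of enterocyte-like and 48.1% of stem cell-like cells, with 9.63% in T or NK-like cells. Krt18 went the other way, with 10.7% of enterocyte-like and 22.5% of stem cell-like cells and 0.741% of T or NK-like cells. Krt7 was found in 3.04% of enterocyte-like and 3.30% of stem cell-like cells, and in 0 of 135 T or NK-like cells, which allows a share of up to 2.22% by 3 counts and of up to 2.70% by the Clopper-Pearson interval.

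Bins drawn across the clusters' borders gave like courses for Krt8, Krt19 and Krt20, while mean Krt18 fell at each step, unlike over the classes. The bins used the same cells and enterocyte marker list as the classes, so they are no independent check. The 2786 cells of the absorptive line were put in 6 bins by each cell's share of enterocyte marker counts, which averaged 0.0527% in the lowest bin and 5.64% in the highest. Krt20 averaged 23.4, 40.7, 105, 368, 912 and 1529 CPM from bin 1 to bin 6, and rose at each of the 5 steps in 4 of 4 replicates. Krt8 averaged 1263, 1571.5, 2301, 3314, 4009 and 4498 CPM and also rose at each step in 4 of 4 replicates. Krt19 averaged 651, 935, 1489.7, 2389, 2558 and 2414.5 CPM, and at the last step it was lower in 4 of 4 replicates. Krt18 averaged 648, 517, 444, 405, 341 and 269.5 CPM, bin 6 being below bin 1 in 4 of 4. Krt7 averaged 61.7 to 94.1 CPM with no step in 1 direction in all 4 replicates other than the first, where it was lower in 4 of 4. Krt18 and Krt19 were level in bin 1 and furthest apart in bins 5 and 6.

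**Figure D2:**
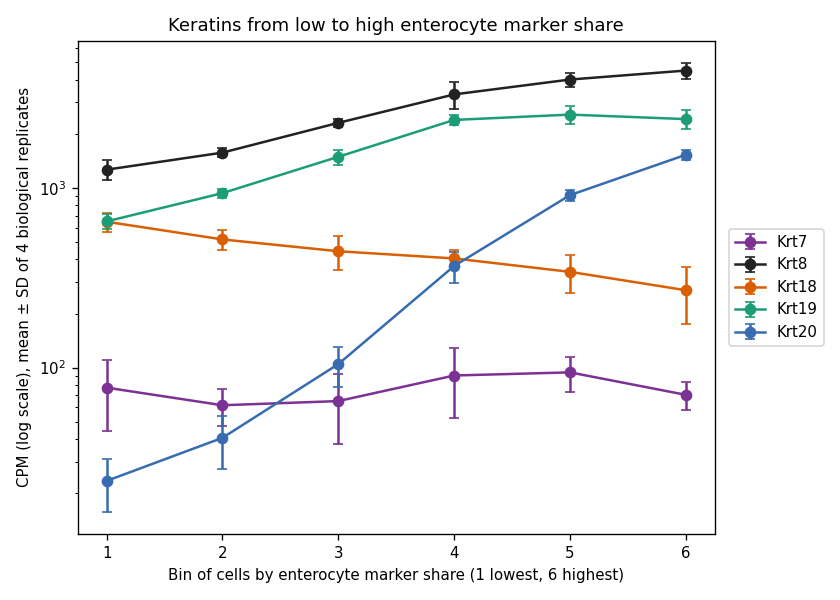
Mean CPM ± SD over 4 biological replicates (log axis) of each keratin in 6 bins of absorptive-line cells, ordered by enterocyte marker share. Krt20 climbs from 23.4 to 1529 CPM, Krt19 turns down after bin 5 and Krt18 declines from bin 1.

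The balance of the 2 chain types changed little while the type I partner changed. Counts here are of 3′ ends, so gene length does not enter, but capture may differ between genes, and the shares below are of counts. Type II chains made up 52.8% of the keratin counts in stem cell-like cells (51.9% to 53.7%), 52.7% in cycling-like, 51.7% in Gsdmc4-led, 52.4% in Reg3g-led and 52.5% in enterocyte-like cells (51.6% to 53.5%). Keratins as a whole took 0.832% of all counts in enterocyte-like cells and 0.345% in stem cell-like cells. Within the type I counts, Krt18 held 5.47% in enterocyte-like and 31.3% in stem cell-like cells, Krt19 held 54.2% in enterocyte-like and 65.1% in stem cell-like cells, and Krt20 held 40.3% in enterocyte-like and 3.62% in stem cell-like cells. In the bins, the type II share of summed mean CPM lay between 50.3% and 53.7%, while the Krt18 part of type I was 49.0% in bin 1 and 6.40% in bin 6.

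**Figure D3:**
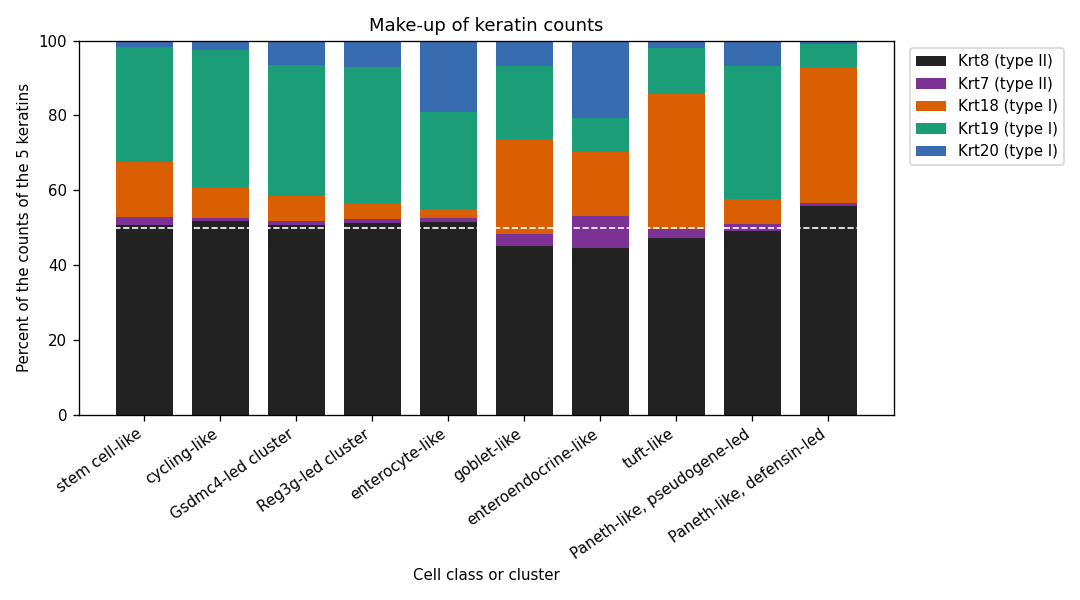
Percent of the counts of the 5 keratins belonging to each gene, pooled over all collections, with type II chains at the bottom and a dashed line at 50%. The type II part stays near the line (48.4% to 56.6%), and Krt19 holds more than 50% of the type I part in each class of the absorptive line as drawn (54.2% in enterocyte-like cells), while Krt18 holds 71.4% in tuft-like cells.

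Enterocyte-like cells were not uniform. They formed 2 clusters, of 269 cells led by Fabp1 and Apoa4 and of 194 cells led by Fabp6 and Tmigd1, Fabp6 being an ileal bile acid binding protein. Krt20 was alike in both, at 1601 ± 157 CPM in the Fabp6 cluster and 1567 ± 118 CPM in the Fabp1 cluster. Krt19 was 2981 ± 62.7 CPM in the Fabp6 cluster and 1544 ± 306 CPM in the Fabp1 cluster, and Krt8 was 5201 ± 490.3 and 3568 ± 352 CPM in that order. For both genes the replicate ranges of the 2 clusters did not overlap. Krt20 held 33.7% of type I counts in the Fabp6 cluster and 47.9% in the Fabp1 cluster, where Krt19 held 46.0%.

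Goblet-like, tuft-like and enteroendocrine-like cells differed from the classes of the absorptive line in levels of type I chains. Not every share was particular to them. Krt18 held 49.0% of type I counts in goblet-like cells, and 49.0% of summed type I CPM in bin 1 of the absorptive line. Krt20 held 44.1% of type I counts in enteroendocrine-like and 40.3% in enterocyte-like cells. Goblet-like cells (712 cells) had 1669 ± 357 CPM of Krt18, above enterocyte-like cells by 2.87 ± 0.13 on the log2(CPM + 10) scale in 4 of 4 replicates, and above stem cell-like cells by 1.66 ± 0.29. Krt18 was found in 55.0% of thinned goblet-like cells. Their Krt7 was 222 ± 34.6 CPM, higher than in stem cell-like cells by 1.62 ± 0.09. Goblet-like cells were also of 2 clusters, and the one with 342 cells had 2225 ± 548 CPM of Krt18 and 672 ± 83.6 CPM of Krt20, against 1352 ± 269 and 310.1 ± 51.3 CPM in the one with 370 cells. Krt19 was 1078 ± 69.9 CPM in the cluster of 342 cells and 1431 ± 237 CPM in that of 370 cells, where it held 46.2% of type I counts and Krt18 44.0%. Tuft-like cells (52 cells) had the highest mean Krt18, 2356 ± 802 CPM, its range overlapping that of goblet-like cells. Krt18 made up 71.4% of their type I counts. Type II chains were 48.4% of keratin counts in goblet-like (47.5% to 49.2%) and 49.6% in tuft-like cells (45.6% to 53.6%).

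Enteroendocrine-like cells (94 cells) had the most Krt7, 490.4 ± 139.9 CPM, and their 4 replicates, at 326 to 616 CPM, lay above every replicate of goblet-like cells. Krt7 was found in 23.0% of their thinned cells (14.6% to 33.2%). Krt20 was 1268 ± 184 CPM there, the second highest level after enterocyte-like cells, without overlap with either neighbour in that order. Krt19 was low in them, at 564 ± 193 CPM, as in tuft-like cells at 616 ± 303 CPM. Krt18 in enteroendocrine-like cells was 1409, 1016 and 1529 CPM in knockout collections, against 913.5, 478 and 326 CPM in flox collections. Krt19 there was 273, 625.5 and 320.5 CPM in knockout collections, against 722, 717 and 717 CPM in flox collections. Neither set of collections overlapped between genotypes, in 188 and 100 counts in all. No test was run in this class, and 6.7% of 6341 genes with at least 20 CPM were higher and 3.0% lower in all 3 knockout collections than in all 3 flox collections.

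Paneth-like cells were of 2 unlike clusters. The one of 28 cells, led by alpha-defensins with Lyz1 in its top 10, had 113 keratin counts in all, with Krt18 at 36.3%, Krt19 at 6.19% and Krt20 at 0.885% of them. The one of 106 cells, led by ribosomal protein pseudogenes and Mptx2, had 1402 keratin counts with Krt18 at 6.70%, Krt19 at 35.4% and Krt20 at 6.92%. Over both, Krt19 held 68.3% of the type I counts. The smaller held no cell of knockout collections 1 and 2. Of the unnamed clusters, the Gm26917-led one (707 cells, median 775 UMIs) had 875 ± 216 CPM of Krt18 and 58.7 ± 25.5 CPM of Krt20. The Zfp46-led one had 18 cells, 16 of them from knockout collection 1, and no genotype value is given for it.

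The genes whose levels over 13 epithelial clusters of at least 30 cells were most like those of each keratin were ranked by Pearson's r of log2(CPM + 10) among 3090 genes, as a description of clusters that share libraries and depth. Nearest to Krt7 were Sct (r = 0.94, the hormone secretin), Ffar2 (a short-chain fatty acid receptor), Camk2n1, Rnase4 and Reg4. Nearest to Krt8 were Mvp (0.95, the major vault protein), Smim22, Smdt1 (a subunit of the mitochondrial calcium uniporter), Fam3b and Mcfd2. Nearest to Krt18 were Atp2a3 (0.91, a calcium pump of the endoplasmic reticulum), Actn1 (alpha-actinin 1), Dnajc1, Foxp1 and Selm. Nearest to Krt19 were Bcl2l15 (0.93), Pgd, Psmb10 (an immunoproteasome subunit), Lgals3 (galectin 3) and Gpr128. Nearest to Krt20 were Svip (0.94), Cdkn1a (the cell cycle inhibitor p21), Smim22, Tmem59 and Sdf2. Among the keratins themselves r was 0.87 for Krt8 and Krt20, 0.64 for Krt8 and Krt19, 0.65 for Krt7 and Krt18, and -0.62 for Krt18 and Krt19.

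Other parts of the filament system were read from lists of genes. Of 21 desmosome and plakin linkers, 13 had at least 20 CPM in epithelial cells, and 8 of them were higher and 2 lower in enterocyte-like than in stem cell-like cells in all 4 replicates (27.2% and 39.2% over the 6042 genes), with a median difference of 0.46, against -0.18 over the 6042 genes. The desmosomal cadherin Dsg2 had 534.5 CPM in enterocyte-like and 300.1 CPM in stem cell-like cells, desmoplakin (Dsp) 292 and 213 CPM, Perp 209.7 and 85.2 CPM, and Itga6, the alpha 6 integrin, 75.9 and 164 CPM. Plectin (Plec), a cytolinker chosen after its value was seen, had 185.5 CPM in enterocyte-like and 34.1 CPM in stem cell-like cells, a difference of 2.15 ± 0.25. Of 17 keratin network regulators, 10 had at least 20 CPM, and 6 were higher and 3 lower in all 4 replicates, against 27.2% higher and 39.2% lower over the 6042 genes. The 14-3-3 protein Sfn, a partner of keratins, had 568 CPM in enterocyte-like and 248 CPM in stem cell-like cells, Ywhaz 373 and 264.5 CPM, Ywhah 165 and 174 CPM, and Pnn 388.5 and 711 CPM. Of 16 other intermediate filament genes only the lamins reached 20 CPM: Lmna had 191 CPM in enterocyte-like and 154 CPM in stem cell-like cells, Lmnb1 11.8 and 74.7 CPM, and Lmnb2 17.1 and 43.4 CPM. The 19 keratins outside the 5 were scarce, Krt23 and Krt10 being highest at 17.1 and 16.4 CPM in epithelial cells. Of 20 dissociation stress genes at that level, 9 were higher and 4 lower in all 4 replicates, against the same 27.2% and 39.2%, and their part in the keratin levels was not tested.

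The comparison of genotypes asked whether keratin levels differ between mice labelled Ptger4 epithelial knockout and those labelled flox. Loss of EP4 itself was not measured here. In all epithelial cells the 5 genes were close between genotypes. In the order of collections 1, 2 and 3, Krt8 had 2661, 2418 and 2815 CPM in knockout, against 3005, 2489 and 2780 CPM in flox. Krt19 had 1546, 1505 and 1689 CPM in knockout, against 1614, 1554 and 1481 CPM in flox. Krt20 had 484, 435 and 479.5 CPM in knockout, against 379.5, 515 and 419 CPM in flox. Krt18 had 597, 638 and 909 CPM in knockout, against 675.5, 712.5 and 730.1 CPM in flox. Krt7 had 105, 107 and 128 CPM in knockout, against 107, 132 and 105 CPM in flox. All 5 overlapped between genotypes, where 2.45% of genes were higher and 4.3% lower in all 3 knockout collections than in all 3 flox ones, and knockout collection 3 was the highest of the 6 for Krt18 and Krt19.

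**Figure D4:**
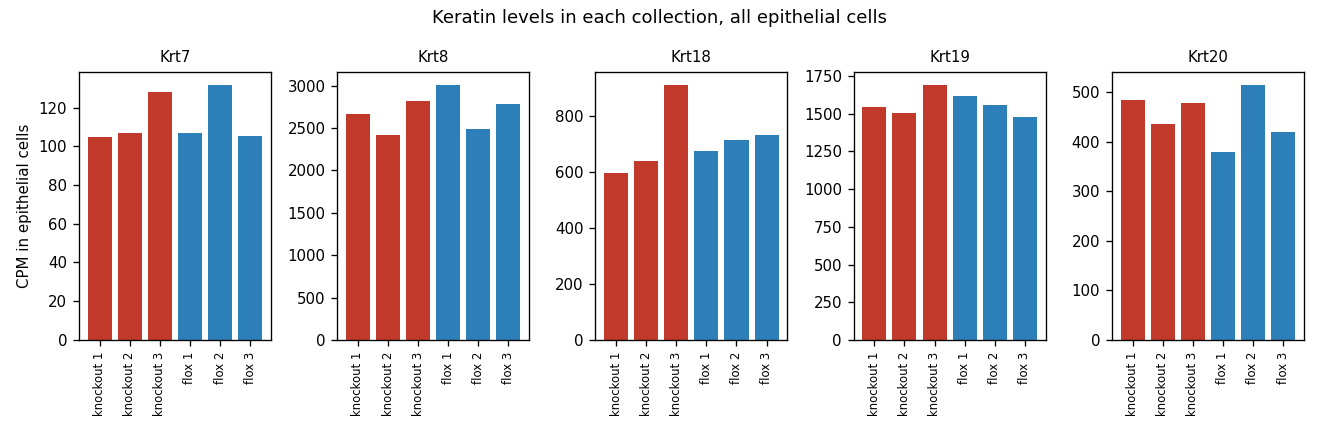
CPM of each keratin in all epithelial cells of each collection (bars from 0, a scale per gene), knockout in red and flox in blue. The genotypes overlap for each gene, and knockout collection 3 stands highest for Krt18 (909 CPM).

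Biological replicate sums (2 knockout, 2 flox) were tested with edgeR's quasi-likelihood test, adjusted by Benjamini-Hochberg over all genes tested. In epithelial cells 0 of the 5 keratins passed an adjusted p of 0.05, where 0.00969% of 10318 genes did (1 gene), and 0 of the 5 had an unadjusted p under 0.05, where 2.36% of genes did. The log2 fold change of knockout over flox was -0.042 for Krt8 (95% interval -0.42 to 0.34), 0.098 for Krt19 (-0.29 to 0.48), 0.14 for Krt18 (-0.30 to 0.58), 0.13 for Krt7 (-0.26 to 0.53) and 0.21 for Krt20 (-0.17 to 0.60). The intervals do not show that levels were equal. For Krt18 the value without knockout collection 3 was -0.13, and within run 1 it was -0.15 and within run 2 0.10. In bulk sums such as these, a change in the mix of cells and a change in RNA per cell cannot be told apart. Enteroendocrine-like cells, the class with the most Krt7, were 61 in knockout and 33 in flox. By collection they were 16, 23 and 22 in knockout, against 16, 10 and 7 in flox. Epithelial cells were 688, 648 and 934 in knockout, against 939, 395 and 899 in flox. Of 17 tested enteroendocrine markers, 9 had an edgeR unadjusted p under 0.05 (median log2 fold change 0.69), while 0 passed the adjusted threshold. The summed markers were 0.139%, 0.228% and 0.097% of epithelial counts in knockout, against 0.067%, 0.247% and 0.054% in flox. Flox collection 2 thus had the highest marker share of all collections.

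In stem cell-like cells 0 of the 5 passed, where 0.0134% of 7469 genes did, and 1 of the 5 had an unadjusted p under 0.05, where 2.83% did. That was Krt20, with 60.3, 74.96 and 83.2 CPM in knockout, against 46.9, 21.7 and 58.4 CPM in flox. The collections did not overlap, where 2.69% of genes were higher and 5.06% lower without overlap, and the log2 fold change was 0.68 (SE 0.28, 95% interval 0.093 to 1.265, edgeR unadjusted p = 0.0258, adjusted p = 0.99973). The value was 0.67 within run 1, 0.48 within run 2 and 0.39 without the first biological replicate of flox. This rests on 207 counts at a level like that of T or NK-like cells (48.8 CPM pooled). Krt20 in T or NK-like cells was 221, 77.4 and 94.0 CPM in knockout, against 0, 0 and 0 CPM in flox, on 7 counts. In the Gm26917-led cluster it was 56.3, 64.9 and 93.7 CPM in knockout, against 33.8, 42.6 and 44.2 CPM in flox, on 39 counts. The collections did not overlap in either, and the share of all genes without overlap there was not computed. Not every class went this way. The replicate means were 60.7 CPM in knockout against 128 CPM in flox in cycling-like cells. In tuft-like cells they were 13.7 CPM in knockout against 237 CPM in flox, on 12 counts. The part of free RNA in the stem cell-like difference was not tested. The summed enterocyte markers moved with it, at 0.236%, 0.220% and 0.269% of stem cell-like counts in knockout, against 0.177%, 0.172% and 0.216% in flox, and their part in the result was not tested. The other 4 keratins had log2 fold changes of -0.18 to 0.063 there.

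In enterocyte-like cells 0 of the 5 passed, where 0.317% of 4416 genes did, and 0 had an unadjusted p under 0.05, where 4.87% did. Krt20 was 1444, 1565 and 1602 CPM in knockout, against 1549, 1941 and 1664 CPM in flox, with a log2 fold change of -0.060 (-0.45 to 0.33). Krt8 had -0.045 (-0.43 to 0.34) and Krt19 0.13 (-0.27 to 0.52). Krt7 was 111, 86.9 and 90.9 CPM in knockout, against 79.8, 83.5 and 62.4 CPM in flox, without overlap, where 3.99% of genes were higher and 5.68% lower in that way, with a log2 fold change of 0.44 (-0.25 to 1.14). Krt18 was 173, 221 and 299 CPM in knockout, against 178, 271 and 191 CPM in flox, with a log2 fold change of 0.34 (-0.19 to 0.88) which was 0.024 without knockout collection 3, -0.27 within run 1 and 0.49 within run 2. For Krt7 the values were 0.48 within run 1 and 0.53 within run 2. Goblet-like cells are rich in Krt18 and Krt7, and of 8 goblet markers tested in enterocyte-like cells 2 rose in knockout by edgeR's adjusted p and 5 had an unadjusted p under 0.05. Summed over the 14 markers they were 0.182%, 0.618% and 0.309% of enterocyte-like counts in knockout, against 0.206%, 0.189% and 0.230% in flox, so that knockout collection 1 lay below all 3 flox collections, and their part in the keratin values was not tested.

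In goblet-like cells 0 of the 5 passed, where 0.0161% of 6215 genes did, and 0 had an unadjusted p under 0.05, where 1.96% did. The collections overlapped for all 5, where 2.96% of genes were higher and 3.6% lower in all 3 knockout collections. The log2 fold changes were -0.085 (Krt8, -0.52 to 0.35), 0.037 (Krt7, -0.53 to 0.61), 0.13 (Krt20, -0.44 to 0.71), 0.20 (Krt18, -0.31 to 0.70) and 0.21 (Krt19, -0.25 to 0.68). Krt18 had 1505, 1284 and 2145 CPM in knockout, against 1688, 1869 and 1403 CPM in flox. In cycling-like cells 0 of the 4 tested passed, where 0.045% of 2220 genes did, Krt7 being too low to test, and 0 had an unadjusted p under 0.05, where 2.97% did. Collections overlapped for all 5, where 3.92% of genes were higher and 4.91% lower in all 3 knockout collections. Krt20 had the widest interval there, -0.96 (-2.08 to 0.17), on 43 counts, and Krt8, Krt18 and Krt19 had -0.036, -0.070 and -0.0029 (log2).

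**Figure D5:**
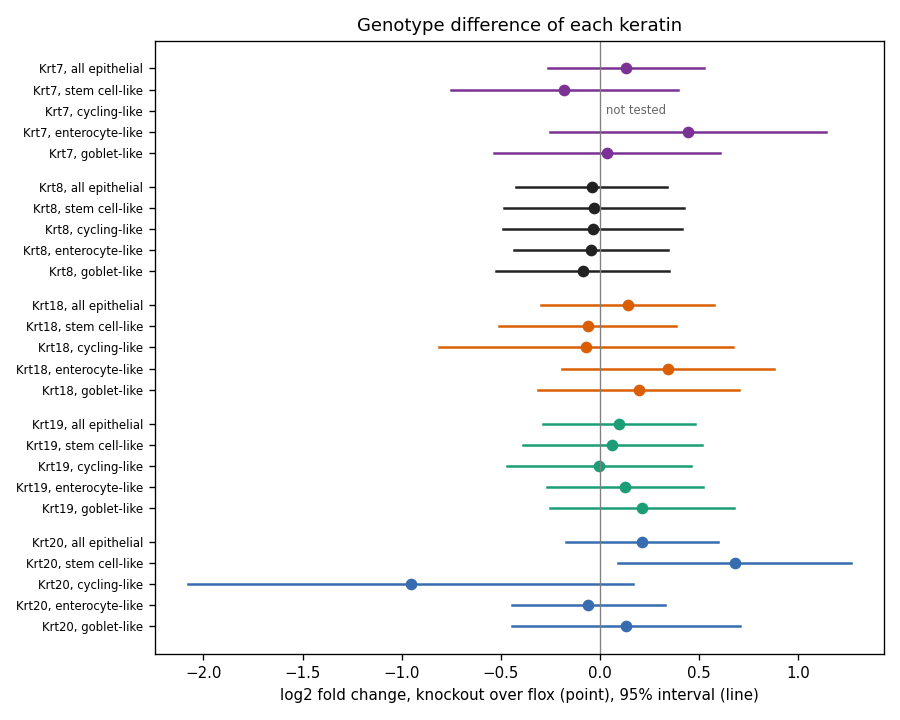
Log2 fold change of knockout over flox (point) and its 95% interval (line) from edgeR for each keratin in all epithelial cells and in 4 classes. Of the 24 intervals, 1 leaves out 0, that of Krt20 in stem cell-like cells (0.093 to 1.265, unadjusted).

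The filament partners showed no call between genotypes either. In epithelial cells 0 of 16 tested desmosome and plakin linkers and 0 of 15 keratin network regulators passed by edgeR. Of other intermediate filament genes 0 of 6 passed, and of other keratins 0 of 4, where 0.00969% of 10318 genes did. In each list 0 had an edgeR unadjusted p under 0.05, where 2.36% of genes did. With so few genes called in all, these counts set no list apart. Their median log2 fold changes were 0.025, 0.013, -0.012 and 0.082, against 0.0041 over all genes tested. Dsg2 had -0.074, Dsp -0.10, Perp 0.061 and Itga6 -0.24, and Sfn had 0.094. Of 22 dissociation stress genes 0 passed and 2 had an edgeR unadjusted p under 0.05, against the same 0.00969% and 2.36% of all genes.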

How the data were processed

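The authors deposited raw counts of 3′ UMIs by gene and barcode, as whole numbers. The submitters' processing notes name STAR 2.6 and mm10. Annotation, barcode calling and strand use in counting are not stated there, and whether reads of keratin pseudogenes fell to the 5 genes is not known. The members and gene lists were chosen with earlier results of these data known.

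Kept barcodes were scaled to 10000 counts, and 2000 variable genes (keratin and mitochondrial genes left out) gave 30 principal components, 15 neighbours and Leiden clusters at resolution 1.0 (scanpy 1.11.5). A cluster was named when at least 3 of a class's markers were enriched 1.5-fold and found in 10% of its cells, and either 2 were among its top 10 genes or 50% of the list was enriched. It stayed unnamed where another class had more markers in that top 10. These naming thresholds were set after the data were seen. Doublets were not removed or called. Counts were summed per biological replicate and tested with edgeR 4.0.16 (TMM, filterByExpr at a minimum count of 10), adjusted by Benjamini-Hochberg over all genes at 0.05, and tested on simulated data. Levels between classes used log2(CPM + 10), which understates the change of low genes. Alternatives were another normalization, no filter, DESeq2, replicate blocks, collections as samples, at least 600 genes per barcode, other clusterings, replicates left out and, chosen after seeing the data, runs, shared barcodes and large barcodes. The rule for named genes took the 5 keratins, the members of each list past the threshold or else up to 4 with the highest mean CPM in epithelial cells, and the 5 genes most like each keratin. Promoter sequences are RefSeq's for GRCm38.p6. For 0 counts, 3 counts set the limit.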

Additional observations from a re-analysis of the deposited data

Results flagged for a closer look

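Of 65 class levels with 4 biological replicates, 5 had 1 replicate far from the other 3 by Dixon's test, which flags about 1 in 20 such groups by chance. Krt18 in enterocyte-like cells was 299 CPM in the second knockout replicate (collection 3), the other 3 lying between 191 and 199 CPM. Krt7 in cycling-like cells was 77.4 CPM in the first flox replicate, on 16 counts in all replicates together. In T or NK-like cells Krt19 was 581 CPM in the first knockout replicate, on 22 counts in all. In B or plasma-like cells the first flox replicate stood out for Krt7 (8.76 CPM, 1 count) and for Krt19 (272 CPM, 48 counts in all).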

How the results depend on the processing

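The 24 keratin fold changes were recomputed under 22 settings, giving 514 values, of which 0 passed the adjusted threshold (lowest adjusted p 0.672), 449 kept their sign and 65 changed it. Inferred runs, shared barcodes and barcodes above 20000 counts were alternatives chosen after seeing the data. Replicate numbers were not shown to pair the samples: deviations of same-numbered biological replicates correlated at 0.29 in 2 mirrored pairs, and those of same-numbered collections at -0.12, 0.009 and 0.33. The second biological replicate had 1880 Xist counts in knockout and 1674 in flox, and the first at most 12 in any collection of either. Same-numbered biological replicates thus share that feature, while the labels give them no shared litter, batch or day. In all that follows the cause of a change was not tested.

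Counts of genes past the threshold with the replicate block were 2 in epithelial, 35 in stem cell-like, 3 in cycling-like, 1 in enterocyte-like and 4 in goblet-like cells, where the reported fits gave 14 in enterocyte-like cells and 1 in each other set. No filter on low counts gave 30 in epithelial and 10 in stem cell-like cells. Enterocyte-like cells had 9 with library size alone, 1 with DESeq2, 9 with collections as samples, 8 with at least 600 genes per barcode and 9 with the run as a term. Goblet-like cells had 3 with collections and a replicate block by collection number. Run 1 gave 18 epithelial, 5 stem cell-like, 3 enterocyte-like and 3 goblet-like genes, and run 2 gave 33 epithelial, 3 cycling-like and 0 in each of the other 3 sets. Leaving out 1 replicate gave 1 to 56 epithelial genes (56 without knockout 3, 32 without flox 3, 18 without the first knockout and 23 without the first flox biological replicate), 0 to 11 stem cell-like (0 without flox 1, 11 without flox 3), 1 to 2 cycling-like, 1 to 28 enterocyte-like (1 without knockout 2, 28 without knockout 3, 22 without flox 3) and 0 to 9 goblet-like (0 without flox 1, 9 without flox 3). A biological replicate left out leaves a lone sum, assumed to vary like the other group.

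Signs changed as follows, in log2 fold change of knockout over flox. Within run 1, epithelial Krt7 was -0.11, Krt8 0.024 and Krt18 -0.15, stem cell-like Krt19 -0.14, cycling-like Krt8 0.14 and Krt19 0.061, enterocyte-like Krt18 -0.27 and Krt19 -0.18, and goblet-like Krt7 -0.64, Krt8 0.016, Krt18 -0.25 and Krt20 -0.018. Within run 2, stem cell-like Krt7 was 0.28 and Krt8 0.041, and enterocyte-like Krt8 0.035. With the run as a term, epithelial Krt18 was -0.017, cycling-like Krt8 0.032 and goblet-like Krt7 -0.054. With collections as samples, stem cell-like Krt8 was 0.010, cycling-like Krt19 0.011, and goblet-like Krt7 -0.10 and Krt20 -0.0086, and with the block by collection number added the first 3 were 0.019, 0.011 and -0.10 and goblet-like Krt18 was -0.0012. The replicate block by biological replicate gave cycling-like Krt19 0.0012. Without barcodes above 20000 counts, stem cell-like Krt8 was 0.0045 and goblet-like Krt7 -0.046, and without shared barcodes cycling-like Krt19 was 0.0098. Clusters made with keratins gave cycling-like Krt8 0.27 and Krt19 0.30.

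Leaving out 1 replicate, epithelial Krt7 ranged from -0.018 to 0.23, Krt8 from -0.087 to 0.019 and Krt18 from -0.13 to 0.36. Stem cell-like Krt7 ranged from -0.37 to 0.10, Krt8 from -0.092 to 0.13, Krt18 from -0.15 to 0.031 and Krt19 from -0.0095 to 0.15. Cycling-like Krt8 ranged from -0.36 to 0.18, Krt18 from -0.50 to 0.36 and Krt19 from -0.15 to 0.088. Enterocyte-like Krt8 ranged from -0.19 to 0.081 and Krt19 from -0.050 to 0.27. Goblet-like Krt7 ranged from -0.17 to 0.30, Krt8 from -0.17 to 0.020, Krt18 from -0.13 to 0.46 and Krt20 from -0.22 to 0.62.

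The enterocyte-like minus stem cell-like difference kept its sign for all 5 genes when 1 biological replicate was left out: 0.13 to 0.41 for Krt7, 1.29 to 1.32 for Krt8, -1.34 to -1.11 for Krt18, 0.98 to 1.04 for Krt19 and 4.33 to 4.62 for Krt20. Clustering with keratins allowed among the variable genes gave 1.35 for Krt8 and 1.10 for Krt19. There too 0 of the 5 were selected as variable, so their own use in clustering was not tested. Resolution 1.5 gave 1.65, 1.51 and 5.47 for Krt8, Krt19 and Krt20. The share of epithelial cells with a UMI rose with depth: thinned to 1000 UMIs and without thinning it was 10.3% and 18.8% for Krt7, 83.7% and 84.0% for Krt8, 43.0% and 53.7% for Krt18, 65.7% and 70.2% for Krt19, and 27.1% and 34.1% for Krt20.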
